A study of Mus musculus with 447 samples.

Results

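The genes examined were Gcg, which encodes proglucagon, and 6 genes for the machinery that turns such precursors into peptide hormones: Pcsk2, Scg5, Pcsk1, Pcsk1n, Cpe and Pam. They were chosen by name, though with earlier results of these data known. These 7 genes were found among the 40824 genes of the count matrices, which held 447 cells.

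RNA was measured by Smart-seq3, a plate-based method with 1 sorted cell per well that reads whole polyadenylated transcripts, in GFP-positive cells of mouse fetal pancreas at E15.5. Ngn3KO cells, labelled Pdx1CreNgn3KONeurod1OE, came from mice whose Cre, driven by the Pdx1 promoter and named as the inducible CreER form in the design text, acted on floxed Ngn3 (the gene Neurog3) and on a Neurod1 overexpression allele. Neurod1OE cells, labelled Pdx1CreNeurod1OE, carried the same Cre and Neurod1 overexpression without the floxed Ngn3. Both groups thus carried the overexpression of NeuroD1, a transcription factor of endocrine cells, and wild-type cells were not analysed here. There were 235 Ngn3KO cells, 30 of them in a set numbered 3 and the rest in a set numbered 2, and 212 Neurod1OE cells, 95 of them in set 3 and the rest in set 2. The set number comes from the titles, which do not say what it stands for, and each set has a matrix of its own. No label ties a cell to an animal or culture, so a genotype was 1 sample in each set. Differences are given by their size, with no test between genotypes.

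Proglucagon is a precursor that is cut differently in different cells. In alpha cells of the adult pancreas the protease PC2 (Pcsk2), with its chaperone 7B2 (Scg5), releases glucagon, whereas in intestinal L cells PC1/3 (Pcsk1) releases GLP-1 and GLP-2. ProSAAS (Pcsk1n) gives rise to an inhibitor of PC1/3, carboxypeptidase E (Cpe) trims the basic residues that the cuts leave behind, and peptidylglycine alpha-amidating monooxygenase (Pam) amidates the ends of peptides such as GLP-1 and pancreatic polypeptide. RNA levels do not show which cuts were made.

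Gcg (62474530 to 62483650, minus strand), Pcsk2 (143546156 to 143816285, plus strand) and Scg5 (113776362 to 113829121, minus strand) lie on chromosome 2 of mm10. Pcsk1 lies on chromosome 13 (75089826 to 75134861, plus strand), Pcsk1n on chromosome X (7919822 to 7924410, plus strand), Cpe on chromosome 8 (64592542 to 64693054, minus strand) and Pam on chromosome 1 (97795114 to 98095646, minus strand). Exons of Pcsk2 overlap those of Pcsk2os1 and Pcsk2os2 on the opposite strand by 359 bases. Shorter stretches of Pcsk1n overlap Eras on the opposite strand, and of Pam overlap B230216N24Rik on the same strand. With a strand setting not given in the sources used here, reads of these stretches cannot be told apart.

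NeuroD1 binds DNA at E-boxes, CANNTG. The promoters of the hormone gene and of the pair of convertases are shown because both genotypes carried the Neurod1 allele and because Pcsk1 was distributed over the cells differently from Gcg and Pcsk2. The 250 bases before each RefSeq start (GRCm38.p6, the assembly behind mm10) are given 5′ to 3′ on the gene's strand, with every CANNTG in capitals. The windows are chr2:62483654-62483903 (minus strand) for Gcg, chr2:143545883-143546132 (plus strand) for Pcsk2 and chr13:75089607-75089856 (plus strand) for Pcsk1.
Gcg: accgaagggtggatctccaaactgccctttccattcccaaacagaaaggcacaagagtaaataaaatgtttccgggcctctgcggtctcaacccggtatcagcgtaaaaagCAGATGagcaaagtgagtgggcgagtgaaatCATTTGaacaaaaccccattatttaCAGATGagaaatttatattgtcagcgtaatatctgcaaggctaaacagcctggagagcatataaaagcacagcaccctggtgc
Pcsk2: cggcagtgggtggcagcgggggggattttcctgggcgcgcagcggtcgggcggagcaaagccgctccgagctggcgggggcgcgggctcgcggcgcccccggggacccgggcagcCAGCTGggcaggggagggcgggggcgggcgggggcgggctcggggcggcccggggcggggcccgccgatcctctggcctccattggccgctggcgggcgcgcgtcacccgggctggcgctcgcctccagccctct
Pcsk1: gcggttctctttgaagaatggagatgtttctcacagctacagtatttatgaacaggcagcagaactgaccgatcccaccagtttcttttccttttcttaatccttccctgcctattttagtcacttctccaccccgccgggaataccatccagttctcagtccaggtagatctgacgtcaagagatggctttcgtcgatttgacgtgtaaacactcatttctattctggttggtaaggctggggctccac
The Gcg window held 3 matches, 2 of them CAGATG, a form that NeuroD1 is known to bind. The Pcsk2 window held 1 match, CAGCTG, and the Pcsk1 window held 0. Of the windows not printed, that of Scg5 held 3, that of Pcsk1n 1, and those of the 2 starts of Pam 1 and 0. No window was available for Cpe. Whether the matches bear on how the genes were distributed was not tested. CANNTG reads as CANNTG on both strands, and 66.2% of 32851 RefSeq windows of this length held it. CAGATG or its reverse complement CATCTG stood in 14.4% of the windows. A match describes the letters in the window and not binding.

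Total counts per cell lay between 25769 and 2788066 reads, with medians of 344128 in Ngn3KO and 572744 in Neurod1OE cells of set 2, and of 728074 and 695079 in those of set 3. The deleted gene, Neurog3, was near the bottom of the range in both genotypes, at 3.06 CPM (counts per 1000000 reads) in Ngn3KO and 3.89 CPM in Neurod1OE cells of set 2, and 3.72 and 17.8 CPM in those of set 3, so its level set the labels apart little in set 2. The median of Neurod1 was 223 CPM in Ngn3KO and 292 CPM in Neurod1OE cells of set 2, but 7.64 CPM in Ngn3KO against 180.5 CPM in Neurod1OE cells of set 3. Of 7 alpha cell markers, 7 stood at 50 CPM or more in both genotypes of set 2 and in Neurod1OE cells of set 3, and 3 did so in Ngn3KO cells of set 3. Of 10 acinar markers, 8 stood at 50 CPM or more in Ngn3KO and 5 in Neurod1OE cells of set 3, with summed levels of 43817 and 4558 CPM, against 108.8 CPM in Ngn3KO and 519 CPM in Neurod1OE cells of set 2. Cells with at least 1000 CPM of the acinar gene Cpa1 numbered 29 of 30 in Ngn3KO and 16 of 95 in Neurod1OE cells of set 3. Within set 2, the predicted gene Gm12338 stood at 10 CPM or more in 52.7% of Ngn3KO and 43.6% of Neurod1OE cells, and results that differed between these positive cells and the negative ones are given within them.

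Gcg was abundant in set 2 and spanned a wide range in set 3. The sum over Ngn3KO cells of set 2 came to 85491 CPM (95% exact Poisson interval 85427 to 85555) and that over Neurod1OE cells to 66129 CPM (66071 to 66187). Single cells ran from 747 CPM over a median of 84098 CPM to 262022 CPM in Ngn3KO, and from 232 CPM over 68811 CPM to 187734 CPM in Neurod1OE. The ranges overlapped over most of their length. At least 10000 CPM of Gcg was found in 85.9% of Ngn3KO and 71.8% of Neurod1OE cells. In set 3 the median cell held 21.2 CPM in Ngn3KO and 120.8 CPM in Neurod1OE, while the sums were 2713 and 19802 CPM. A single Ngn3KO cell, with 76153 CPM of Gcg, held 99.1% of the Gcg reads of its group, whereas 29 Neurod1OE cells stood at 10000 CPM or more. Intervals cover counting error only, since reads made by amplification are not independent molecules.

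Pcsk2, the convertase that makes glucagon, had reads in every cell of set 2. It summed to 2090.3 CPM in Ngn3KO (2080.3 to 2100.3) and 2113 CPM in Neurod1OE cells (2103 to 2123), a log2 ratio of -0.02 after 1 CPM was added to each. Cells ran from 82.3 CPM over a median of 2087 CPM to 4947 CPM in Ngn3KO and from 64.5 CPM over 2264 CPM to 6054 CPM in Neurod1OE. The genotypes covered nearly the same range of Pcsk2. Of set 3, the median was 0 CPM in Ngn3KO and 505 CPM in Neurod1OE cells, and 97.4% of the Ngn3KO reads came from the single Gcg-rich cell, which had 1376 CPM.

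Scg5, whose product 7B2 escorts PC2 and is needed for its activity, had a median of 325 CPM in Ngn3KO (0 to 1582) and 455 CPM in Neurod1OE cells (28.3 to 1926) of set 2. The log2 ratio of the sums was -0.33, within 2-fold. In set 3 an Scg5 read was found in 12 of 30 Ngn3KO cells (95% exact Clopper-Pearson interval 22.7 to 59.4%) and in 85 of 95 Neurod1OE cells (81.5 to 94.8%), at medians of 0 and 252 CPM.

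Pcsk1, the other convertase, was less abundant and unevenly spread. Per kilobase of exon it summed to 17.5 CPM in Ngn3KO and 17.3 CPM in Neurod1OE cells of set 2, against 264 and 267 CPM per kilobase for Pcsk2. A Pcsk1 read was found in 76.6% of Ngn3KO (70.2 to 82.2) and 79.5% of Neurod1OE cells (71.03 to 86.4), and in 70.7% and 68.7% of cells thinned to 165298 reads. The median was 23.9 CPM in Ngn3KO and 12.1 CPM in Neurod1OE cells, and the highest cells reached 1267 and 1123 CPM. The 21 Ngn3KO and 12 Neurod1OE cells with the most Pcsk1 reads held 59.01% and 55.8% of them. For Pcsk2 as many cells held 23.8% and 23.4%. Set 3 gave Pcsk1 medians of 70.3 CPM in Ngn3KO and 41.5 CPM in Neurod1OE cells, so that Pcsk1 was the single gene of the 7 whose median was higher in Ngn3KO cells there. The highest of these Ngn3KO cells, at 806 CPM, held 28.7% of the group's Pcsk1 reads.

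Pcsk1n, the precursor of the PC1/3 inhibitor, summed to 411 CPM in Ngn3KO and 468 CPM in Neurod1OE cells of set 2, with medians of 353 CPM (0 to 1912) and 446 CPM (21.2 to 1949.9). In set 3 the sums were 39.2 CPM in Ngn3KO and 1062 CPM in Neurod1OE cells. The single Gcg-rich Ngn3KO cell, at 954 CPM, held 85.8% of the Pcsk1n reads of its group.

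Cpe and Pam, which finish the cut peptides, were high throughout set 2. Cpe had a median of 2406 CPM in Ngn3KO (609.9 to 5209.9) and 2439.8 CPM in Neurod1OE cells (104.7 to 5365). Pam had a median of 1878 CPM in Ngn3KO (214 to 14075) and 1705 CPM in Neurod1OE cells (38.7 to 5378). Both genes also had reads in nearly every cell of set 3, at medians of 57.1 CPM of Cpe in Ngn3KO against 1597 CPM in Neurod1OE, and 106.2 CPM of Pam in Ngn3KO against 1576 CPM in Neurod1OE. Per kilobase of exon, the levels of set 2 ran in the order Gcg (57223 CPM in Ngn3KO and 44263 CPM in Neurod1OE), Cpe (896 and 908), then Pcsk2 and Scg5 (231 and 291), Pcsk1n (187.3 and 213), Pam (158.1 and 141.9) and Pcsk1. Pcsk2 stood above Scg5 in Ngn3KO cells and below it in Neurod1OE cells, so the order of this pair was not settled. Lengths were those of all annotated exons of a gene together. For Pam this was 11892 bases, against 4102 in its longest coding transcript, and for Pcsk2 7910 against 4723. The place of Pam in the order thus depends on the length used.

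**Figure D1:**
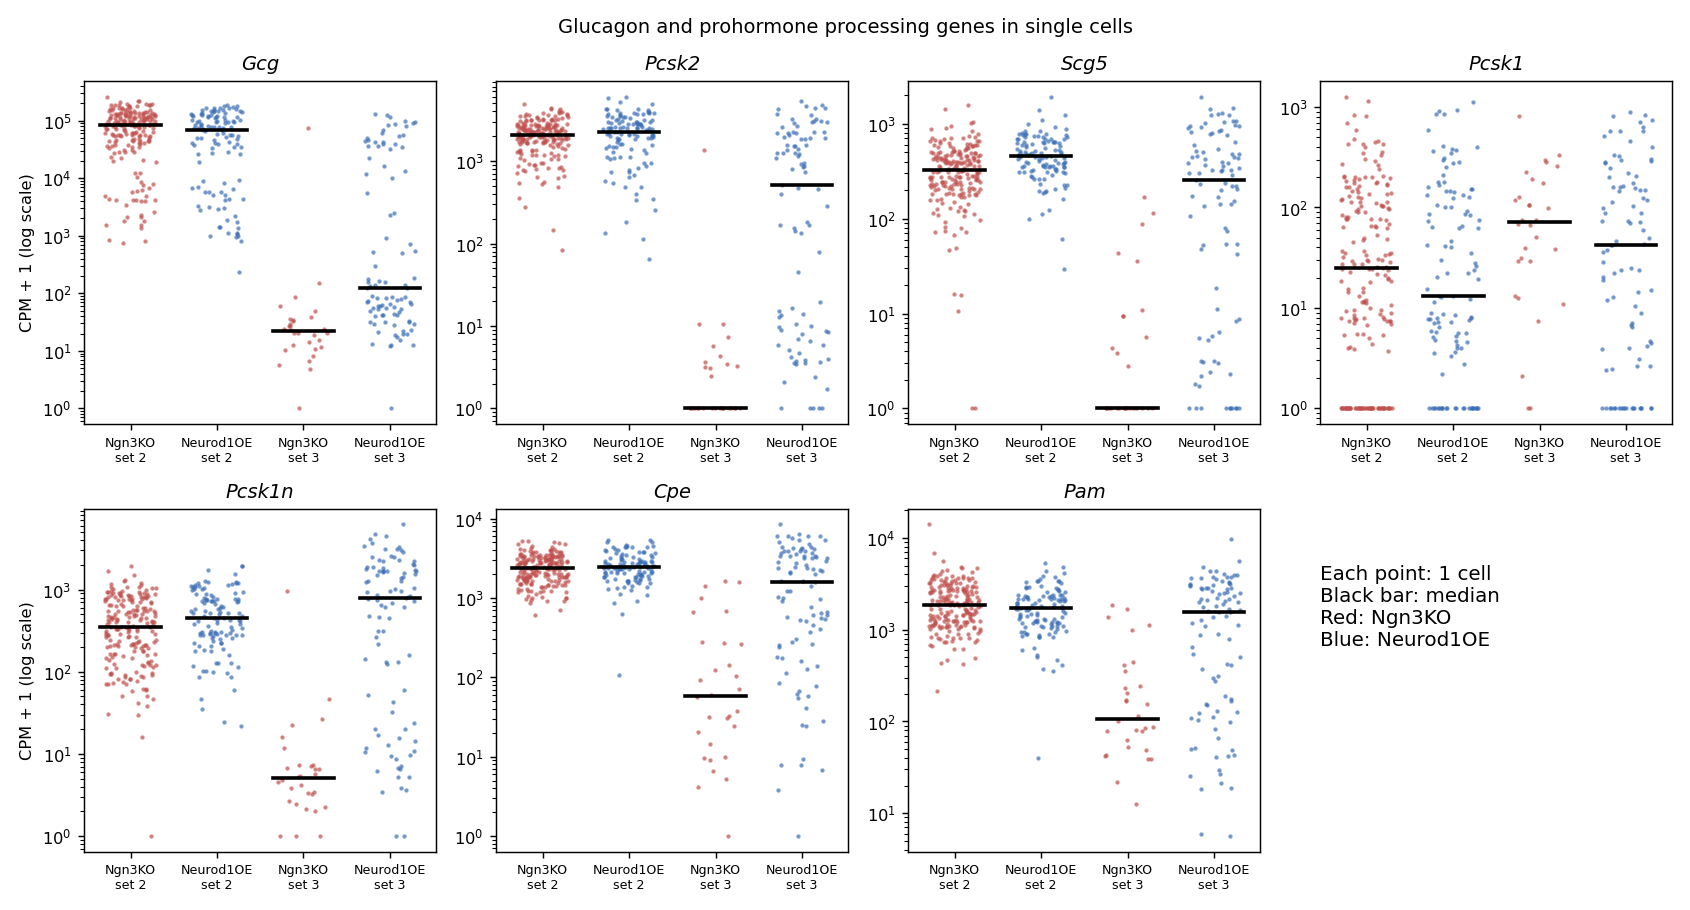
CPM plus 1 (log scale) of the 7 genes in each cell, 1 point per cell, with the median as a black bar, for Ngn3KO and Neurod1OE cells of sets 2 and 3. In set 2 the genotypes overlapped for every gene. In set 3 the Ngn3KO cells lay lower for Gcg, Pcsk2, Scg5, Pcsk1n, Cpe and Pam (median 0 CPM of Pcsk2) and not for Pcsk1 (median 70.3 against 41.5 CPM).

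Between genotypes of set 2, 0 of the 7 genes were at least 2-fold apart, where 2.53% of 10010 measured genes were. Measured genes had 10 CPM or more, with reads in 10% of cells or more, in 1 genotype, a filter that the 7 genes passed in both sets. The log2 ratios of Ngn3KO over Neurod1OE were 0.37 for Gcg, 0.01 for Pcsk1, -0.19 for Pcsk1n, -0.02 for Cpe and 0.16 for Pam. Within cells with at least 10000 CPM of Gcg, 0 of 7 were 2-fold apart, with 2.80% of 9884 measured genes past that limit. Pcsk1 had the ratio farthest from 0 there, at 70.6 CPM in Ngn3KO and 52.4 CPM in Neurod1OE cells (log2 0.42).

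In set 3, 6 of the 7 genes were at least 2-fold lower in Ngn3KO cells, where 31.8% of 10478 measured genes were lower and the median of these genes was -0.57. The log2 ratios were -2.87 for Gcg, -4.39 for Pcsk2, -4.65 for Scg5, -4.72 for Pcsk1n, -2.89 for Cpe and -2.14 for Pam. The exception was Pcsk1, with 121.9 CPM in Ngn3KO (117.3 to 126.5) and 112.3 CPM in Neurod1OE cells (109.8 to 114.8), a log2 ratio of 0.12. Leaving out the cell with the most reads of each gene in each group moved Gcg to -9.40, Pcsk2 to -8.73 and Pcsk1n to -7.20. Leaving out cells at 1000 CPM of Gcg or more gave -1.74, -7.30 and -6.24, and Pcsk1 was at -0.20 and -0.10 in these cases. Sex and Gm12338 also differed between the genotypes of set 3. By Xist and the Y-linked genes, 30 Ngn3KO cells were male, against 64 male and 27 female Neurod1OE cells. Gm12338 stood at 10 CPM or more in 0 Ngn3KO and 71 Neurod1OE cells. Acinar markers and Neurod1 moved with these groups, as given above. The 8 pan-endocrine markers summed to 558 CPM in Ngn3KO and 3883 CPM in Neurod1OE cells, with 2 and 8 of them at 50 CPM or more. The 4 mesenchyme markers summed to 583 CPM in Ngn3KO (2 of them at 50 CPM or more) and 5.396 CPM in Neurod1OE cells. The part of these cell types and of Gm12338 in the result was not tested, beyond the Cpa1-high cells below.

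Cells high in the acinar gene Cpa1 were therefore set side by side. In cells with at least 1000 CPM of Cpa1 and under 1000 CPM of Gcg, 29 Ngn3KO and 15 Neurod1OE cells, 6 of 7 genes were again at least 2-fold lower in Ngn3KO, beside 22.3% of 9588 measured genes past 2-fold either way. A few Neurod1OE cells carried most of this. Pcsk2 summed to 1.36 CPM in these Ngn3KO and 66.2 CPM in these Neurod1OE cells, while the medians were 0 and 2.96 CPM, and the medians of Cpe were 55.5 and 53.8 CPM. Without the 1 Ngn3KO and 4 Neurod1OE cells that also held another hormone at 1000 CPM or more, Pcsk2 summed to 1.13 CPM in Ngn3KO (28 cells) and 2.81 CPM in Neurod1OE (11 cells), Pcsk1n to 5.76 and 5.69 CPM, Cpe to 215 and 97.3 CPM, and Pam to 307 and 71.5 CPM. Cpa1-high cells without hormones thus held little of Pcsk2 and Pcsk1n in either genotype. Of the 4 genes that passed the filter there, 0 were at least 2-fold lower in Ngn3KO, beside 15.2% of 9287 measured genes, and Cpe and Pam were higher (log2 1.13 and 2.09), beside 7.66%. Their medians were 57.1 and 23.7 CPM of Cpe, about as far apart as the sums, and 106.2 and 47.4 CPM of Pam, closer than the sums. Pcsk1 was at 91.7 CPM in these Ngn3KO and 45.8 CPM in these Neurod1OE cells, with medians of 70.3 and 13.3 CPM. A single cell held 45.8% of the Pcsk1 reads of these Neurod1OE cells.

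Across cells of set 2, Pcsk1 was lower where Gcg was higher. In Ngn3KO cells of set 2, the median of Pcsk1 was 115.7 CPM at 1000 to 10000 CPM of Gcg, 28.9 CPM at 10000 to 50000, 23.1 CPM at 50000 to 100000 and 10.2 CPM at 100000 or more. In Neurod1OE cells of set 2 the same bands gave 132.1, 78.8, 7.29 and 6.78 CPM. The bands held 26, 35, 64 and 77 Ngn3KO and 29, 18, 28 and 38 Neurod1OE cells. In both genotypes each band of higher Gcg had a lower Pcsk1 median. The quartiles overlapped, with 0 to 83.6 CPM in the highest band of Ngn3KO and 15.9 to 310.4 CPM in the 1000 to 10000 band.

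Set against the 1000 to 10000 band, the sums of the highest band were 55.9 and 246 CPM of Pcsk1 in Ngn3KO cells (log2 -2.12) and 40.2 and 221 CPM in Neurod1OE cells (log2 -2.43). Pcsk1 was the 1 gene of the 7 at least 2-fold lower there, beside 13.7% of 10184 measured genes in Ngn3KO and 15.6% of 10434 in Neurod1OE. Gcg defined the bands, and 1 of 7 is near these shares. Of the measured substrate genes counted below, 13 of 18 were lower and 1 higher in Ngn3KO. In Neurod1OE 6 of 16 were lower and 2 higher. Over all cells of a genotype, a fall of this size was thus not particular to Pcsk1. In Gm12338-positive cells 13 of 17 were lower and 0 higher in Ngn3KO, and 9 of 16 lower and 1 higher in Neurod1OE. In negative cells 2 of 16 were lower and 6 higher in Ngn3KO, and 3 of 14 lower and 2 higher in Neurod1OE. Among cells without another hormone, 9 of 17 were lower and 2 higher in Ngn3KO, and 1 of 14 lower and 1 higher in Neurod1OE. Gcg reads themselves lower the CPM of other genes. On totals without Gcg reads, the highest and the 1000 to 10000 band held 65.2 and 246 CPM of Pcsk1 in Ngn3KO cells, and 46.6 and 222 CPM in Neurod1OE cells. Within the Gm12338 subsets the log2 ratio was -2.02 in positive and -1.88 in negative Ngn3KO cells, and -1.92 in positive and -3.13 in negative Neurod1OE cells. Among cells without another hormone at 1000 CPM or more it was -1.50 in Ngn3KO and -2.15 in Neurod1OE. The 1000 to 10000 band held 4 negative Ngn3KO cells and 5 Ngn3KO cells without another hormone, so these 2 values rest on few cells.

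Pcsk2 was higher in the Gcg-richest cells by less than 2-fold. The highest band had 2457 CPM and the 1000 to 10000 band 1647 CPM in Ngn3KO (log2 0.58), and the same bands had 2533 and 1664 CPM in Neurod1OE cells (log2 0.61). In Gm12338-negative cells the log2 ratio was 1.27 in both genotypes, and in positive cells 0.35 in Ngn3KO and 0.11 in Neurod1OE. Without another hormone it was -0.03 in Ngn3KO, where the lower band held 5 cells, and 0.55 in Neurod1OE. For Pcsk1n the log2 ratios were 1.03 in Ngn3KO, past 2-fold beside 6.65% of measured genes, and 0.88 in Neurod1OE, but 0.44 in positive and 0.80 in negative Ngn3KO cells, and -0.12 in positive and 1.24 in negative Neurod1OE cells. Scg5, Cpe and Pam were within 2-fold in each genotype as a whole. Within Gm12338-negative Neurod1OE cells Cpe was just past that limit (log2 1.02, beside 10.6% of 10399 measured genes higher), and Scg5 and Pam had 0.86 and 0.84, against -0.20 and -0.63 in positive cells.

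Set 3 held many Neurod1OE cells with little Gcg, of which set 2 had few. Cells with at least 10000 CPM of Gcg, compared with cells under 1000 CPM, had 2445 and 372 CPM of Pcsk2 (log2 2.71), 809 and 161.03 CPM of Scg5 (2.32), and 2172 and 509.8 CPM of Pcsk1n (2.09). Cpe had 3732 and 1029 CPM (1.86) and Pam 2238 and 989.7 CPM (1.18). Beside Gcg, which defined the classes, these 5 genes were at least 2-fold higher, as were 13.1% of 10803 measured genes. Pcsk1 went the other way, with 57.5 and 133.1 CPM (log2 -1.20), as did 19.1% of measured genes.

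**Figure D2:**
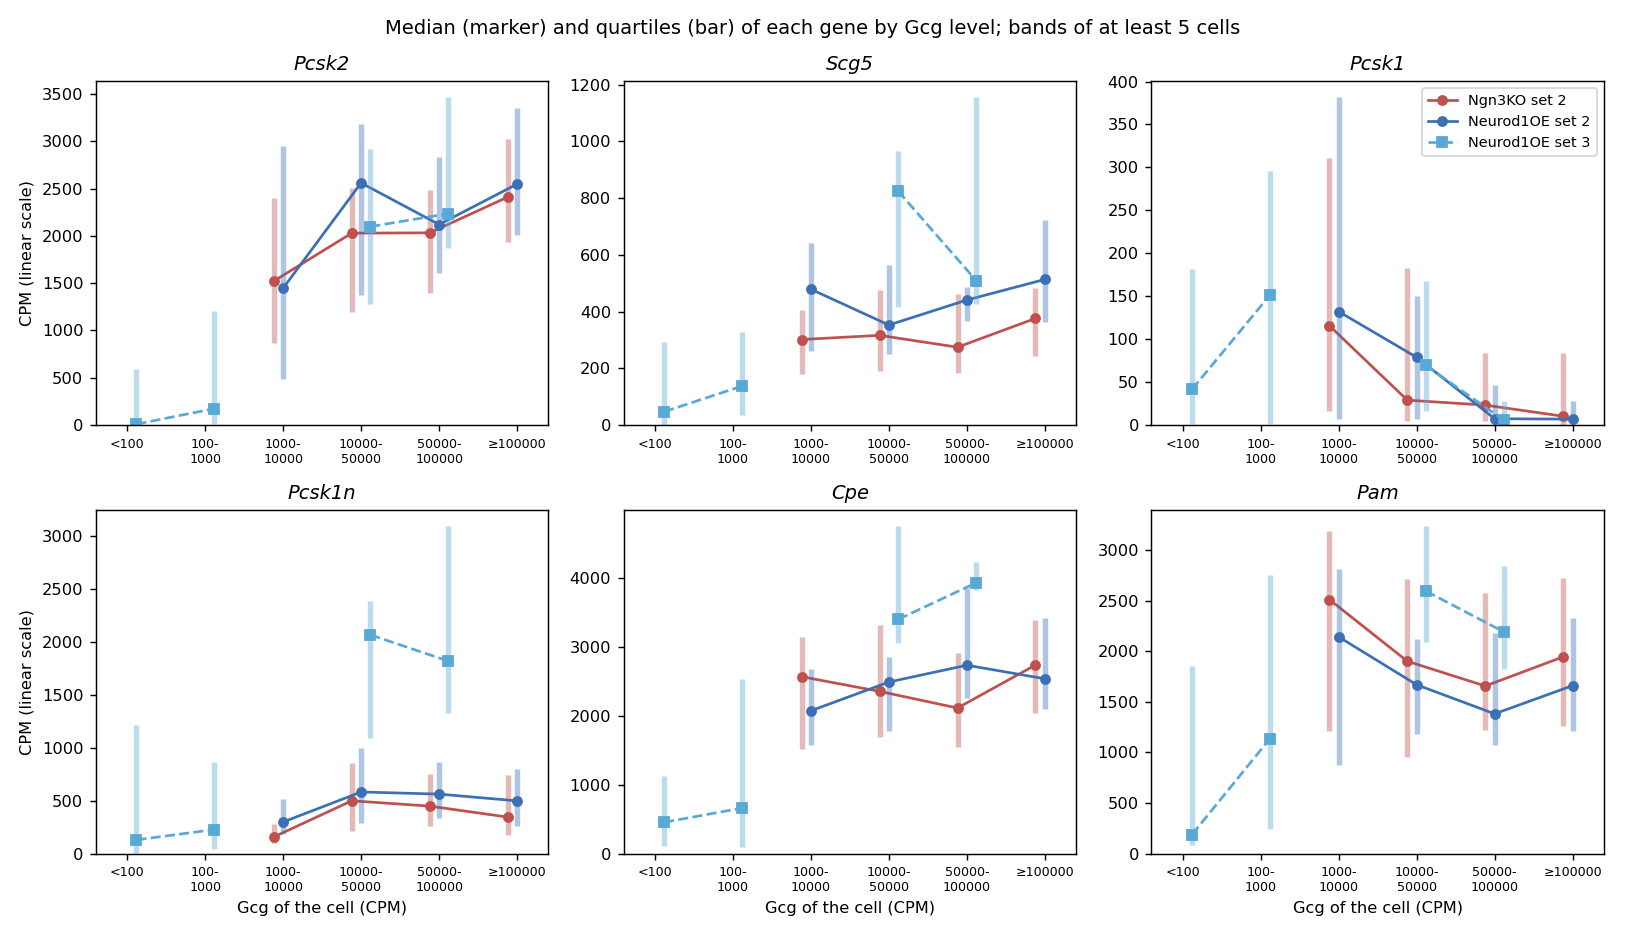
Median (marker) and quartiles (bar) of CPM, on a linear scale, of the 6 processing genes by the Gcg level of the cell, for Ngn3KO and Neurod1OE cells of set 2 and Neurod1OE cells of set 3, in bands of at least 5 cells. The Pcsk1 median was lowest in the highest band of both genotypes of set 2, at 10.2 and 6.78 CPM, while the Pcsk2 median of Ngn3KO cells was highest there, at 2411 CPM.

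The balance of the convertases was read per cell as the share of Pcsk1 in the sum of Pcsk1 and Pcsk2 reads per kilobase of exon, in cells with at least 20 reads of the pair. In set 2 each cell of both genotypes passed that limit. The median Pcsk1 share was 1.80% in Ngn3KO (quartiles 0.260 and 7.40%) and 0.881% in Neurod1OE cells (0.153 and 8.19%). Pcsk1 exceeded Pcsk2 in 2 Ngn3KO cells (0.976%, 0.118 to 3.48) and in 4 Neurod1OE cells (3.42%, 0.939 to 8.52). Nearly every cell of set 2 thus had more Pcsk2 than Pcsk1 in either genotype, and 48 Ngn3KO and 24 Neurod1OE cells had 0 reads of Pcsk1. A share of 5 to 50% was found in 63 Ngn3KO and 35 Neurod1OE cells, which hold RNA of both convertases.

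By Gcg level, the median Pcsk1 share in Ngn3KO cells of set 2 was 9.40% at 1000 to 10000 CPM of Gcg, 4.01% at 10000 to 50000, 1.56% at 50000 to 100000 and 0.699% at 100000 or more. In Neurod1OE cells it was 12.1, 4.45, 0.421 and 0.367% over the same bands. The cells with more Pcsk1 than Pcsk2 stood under 10000 CPM of Gcg in both genotypes. At 10000 CPM or more, 0 Ngn3KO and 0 of 84 Neurod1OE cells had more Pcsk1, with exact upper bounds of 2.07% and 4.30%.

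Set 3 gave another balance. More Pcsk1 than Pcsk2 was found in 18 of 19 evaluable Ngn3KO cells (94.7%, 73.97 to 99.9) and 23 of 76 evaluable Neurod1OE cells (30.3%, 20.2 to 41.9). The remaining 11 and 19 cells had under 20 reads of the pair. The Ngn3KO exception was the Gcg-rich cell, with a Pcsk1 share of 6.29%. Among Neurod1OE cells, 0 of 29 with at least 10000 CPM of Gcg (0 to 11.9%) and 23 of 44 under 1000 CPM (52.3%, 36.7 to 67.5) had more Pcsk1. In the Cpa1-high cells under 1000 CPM of Gcg, 18 of 18 evaluable Ngn3KO and 9 of 10 evaluable Neurod1OE cells had more Pcsk1 than Pcsk2.

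**Figure D3:**
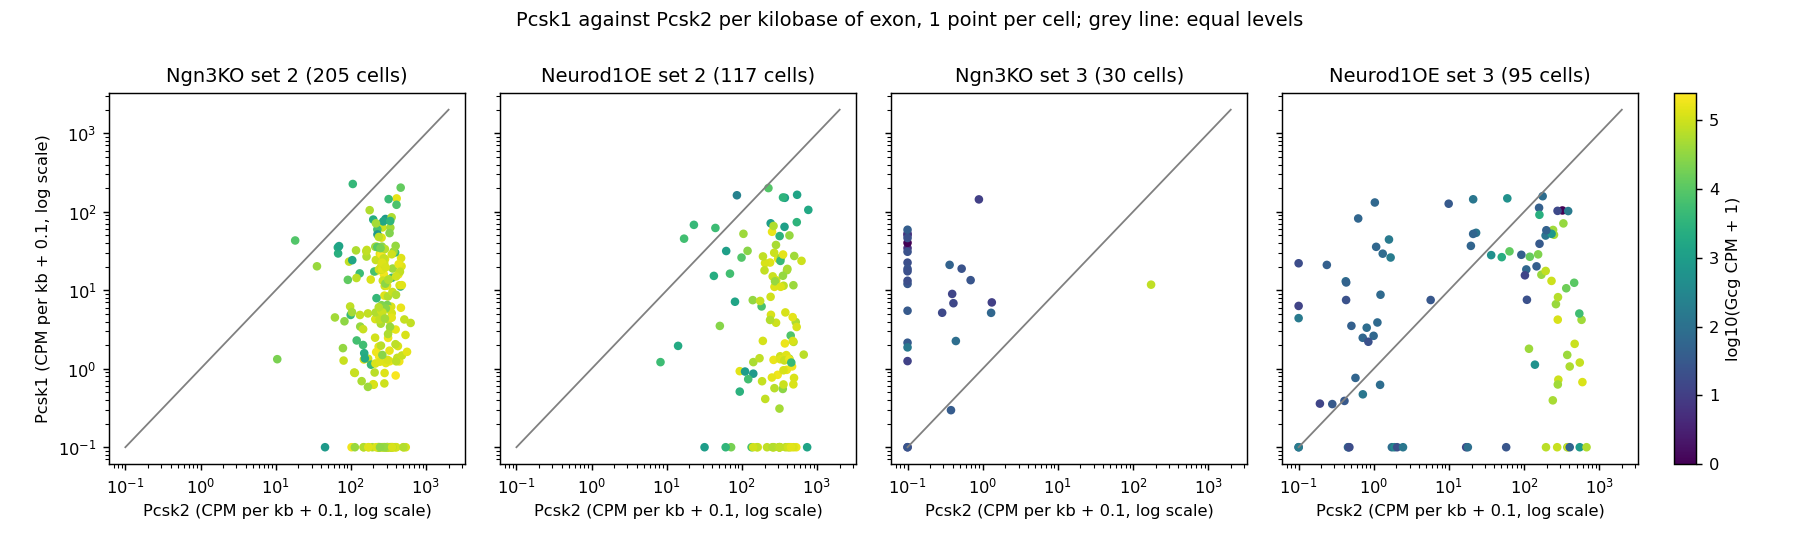
Pcsk1 against Pcsk2, both in CPM per kilobase of exon plus 0.1 on log scales, with 1 point per cell coloured by log10 of Gcg CPM plus 1, in Ngn3KO and Neurod1OE cells of sets 2 and 3; the grey line marks equal levels. In set 2 the cells lay below the line except for 2 Ngn3KO and 4 Neurod1OE cells, and in set 3 most Ngn3KO cells lay above it at little or no Pcsk2.

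The hormones a cell carried beside Gcg went with its balance. Counting a hormone from 1000 CPM, cells with Gcg and Ghrl, the ghrelin gene of epsilon cells, had a median Pcsk1 share of 10.5% in Ngn3KO (21 cells) and 12.02% in Neurod1OE (7 cells) of set 2. Cells with Gcg alone had 0.988% in Ngn3KO and 0.487% in Neurod1OE, and cells with Gcg and Ppy, the pancreatic polypeptide gene, 1.80% (45 cells) and 1.70% (21 cells). The 7 Ngn3KO cells with Gcg and insulin had 2.45%. In Neurod1OE cells of set 3 the median share was 2.81% with Gcg and Ghrl (7 cells), 1.45% with Gcg and Ppy (5 cells) and 0.418% with Gcg alone (19 cells). In set 2, Gcg was lower in cells with a second hormone, at medians of 56736 CPM in Ngn3KO and 27614 CPM in Neurod1OE cells with Ghrl, and 56885 and 37682 CPM with Ppy, against 92805 and 94396 CPM in cells with Gcg alone. The quartiles of the Ghrl class (1.80 and 16.8% in Ngn3KO) overlapped those of cells with Gcg alone (0 and 4.73%).

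Most Gcg-rich cells held the complete set of genes. With at least 10000 CPM of Gcg, 73.3% of Ngn3KO (66.1 to 79.7) and 76.2% of Neurod1OE cells (65.7 to 84.8) of set 2 had a read of each of the 7, and 98.9% of Ngn3KO and 84 of 84 Neurod1OE cells had a read of each gene other than Pcsk1. Of the Cpa1-high cells of set 3, at greater median depth, 3 of 29 Ngn3KO and 10 of 15 Neurod1OE cells had a read of each of the 7. Thinned to 165298 reads, 0 of 26 Ngn3KO and 3 of 15 Neurod1OE cells did.

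Pcsk1n was the gene that separated the Gm12338 subsets of set 2. Gm12338-positive cells had 197.8 CPM and negative cells 681 CPM in Ngn3KO (log2 -1.78, with 4.75% of 10047 measured genes at least 2-fold lower), and 258 and 685 CPM in Neurod1OE (log2 -1.41, with 7.18% of 10286 lower). The other 6 genes were within 2-fold in both genotypes. At 10000 CPM of Gcg or more the log2 ratios were -1.72 in Ngn3KO (5.13% lower) and -1.52 in Neurod1OE (9.58% lower), with per-cell medians of 201.95 and 707 CPM in Ngn3KO, and 278 and 767 CPM in Neurod1OE. Of these positive cells, 4 of 84 Ngn3KO and 0 of 29 Neurod1OE cells stood above the median of the negative cells.

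Sex went with this split in Neurod1OE and not in Ngn3KO cells. Pcsk1n is X-linked, and by Xist and the Y-linked genes the positive Neurod1OE cells were male and the negative ones female where called. Positive and negative Ngn3KO cells were female where called, at sums of 197.5 and 686 CPM. Within subsets the genotypes were close, with log2 ratios of Ngn3KO over Neurod1OE of -0.38 in positive and -0.01 in negative cells. Over female cells of set 2 the ratio was -0.72, where female Neurod1OE cells were Gm12338-negative and female Ngn3KO cells of both kinds. Among set 3 cells with at least 10000 CPM of Gcg, 20 positive and 9 negative Neurod1OE cells had medians of 1963 and 1819 CPM, with no such split. These medians exceeded those of set 2. Set 3 over set 2, in Neurod1OE cells with at least 10000 CPM of Gcg, gave 2172 and 549 CPM of Pcsk1n (log2 1.98, with 7.77% of 10256 measured genes higher), and the other 6 genes were within 2-fold, with Scg5 at 809 and 463 CPM (log2 0.80). What sets these cells apart was not tested.

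**Figure D4:**
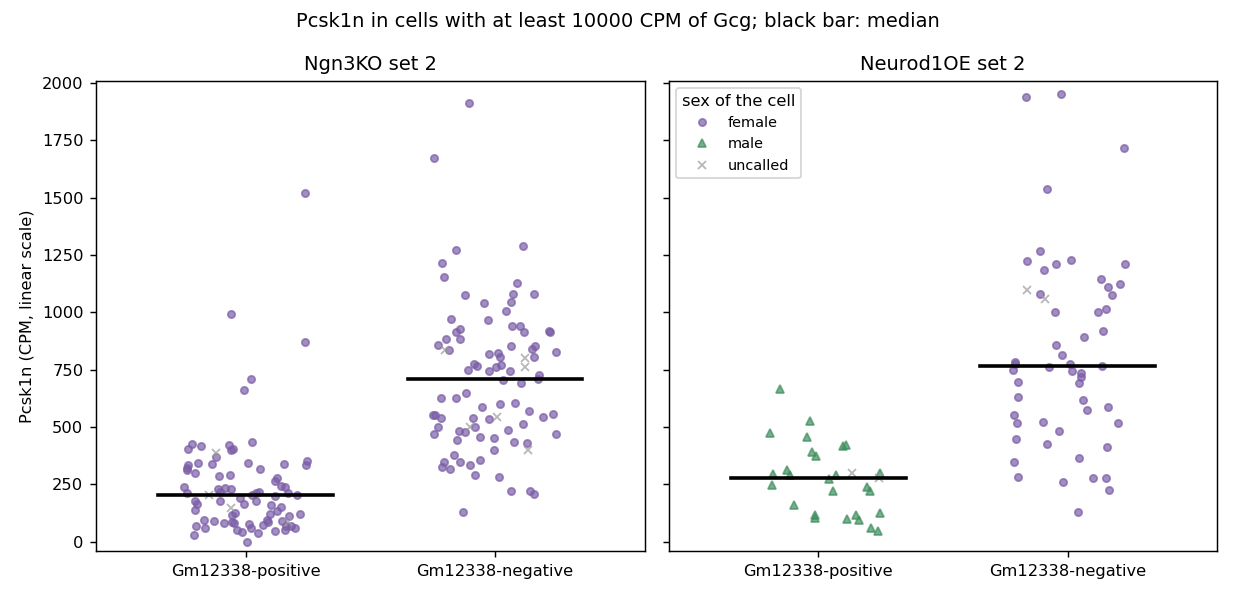
Pcsk1n (CPM, linear scale) in cells of set 2 with at least 10000 CPM of Gcg, split by Gm12338 at 10 CPM, in Ngn3KO and Neurod1OE cells, with 1 point per cell marked by its called sex and the median as a black bar. The medians of positive cells were 201.95 CPM in Ngn3KO and 278 CPM in Neurod1OE, below the 707 and 767 CPM of negative cells, and positive Ngn3KO cells were female where positive Neurod1OE cells were male.

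Other genes of the pathway were counted from lists of further proteases and cofactors, of substrates, and of receptors. Of 22 measured proteases and cofactors, 0 were 2-fold apart between genotypes of set 2 (median log2 0.08, against -0.07 over measured genes). The most abundant were Aplp1, Pdia3, the cathepsin genes Ctsl and Ctsb, Cpn1 and Mbtps1. Their summed levels lay between 118.7 CPM (Mbtps1) and 1121 CPM (Aplp1) in Ngn3KO and between 134.8 and 1171 CPM in Neurod1OE cells. Ngn3KO cells had at least 2-fold more of 6 of the 18 measured substrate genes and less of 0, beside 0.859% higher and 1.67% lower over measured genes (median of the list 0.27). Ins2, an insulin gene, had 4045 and 153.1 CPM (log2 4.71). The others were Ins1, Sst, Ghrl, Npy and Cck, named here after their values were seen. In Ngn3KO, 5 of 17 measured substrate genes were higher and 0 lower among Gm12338-positive cells (7.75% of measured genes past 2-fold either way). In negative cells 2 of 15 were higher and 1 lower (4.92% either way). At 10000 CPM of Gcg or more 3 of 18 were higher and 0 lower (2.80% of 9884 either way). The sums of Cck, Ghrl and Ins1 were higher in Ngn3KO although fewer of its cells had a read. Cells were not thinned for these shares, and median depth was lower in Ngn3KO (344128 against 572744 reads). The shares were 30.7% against 45.3% for Cck, 91.2% against 95.7% for Ghrl and 82.9% against 89.7% for Ins1. For Ins2 they were nearly equal, at 97.6% and 96.6%. More Ngn3KO cells had a read of Sst (33.7% against 23.1%) and Npy (31.7% against 20.5%). Pyy (12287 CPM in Ngn3KO and 16953 CPM in Neurod1OE), Iapp (3608 and 3319), Ppy (1423 and 2147), Chga (1408 and 1139.6) and Gast (1286 and 1086) were within 2-fold.

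In set 3, 15 of 15 measured substrate genes were lower in Ngn3KO cells (median log2 -4.33), and of 23 measured proteases and cofactors 8 were lower and 1 higher (median -0.70), beside 31.8% lower and 5.96% higher over measured genes. Aplp1 (164.8 and 1342 CPM) and Ctsb (223 and 481 CPM) were lower, and Ctsl (749.6 and 715 CPM), Cpn1 (236 and 216 CPM) and Pdia3 (615 and 715 CPM) were within 2-fold. The gene that was higher was Erp44, named after its value was seen, with 151.6 and 71.9 CPM. Of the receptor genes, Gipr was measured, at 38.9 and 42.4 CPM in Ngn3KO and Neurod1OE cells of set 2 and 2.67 and 63.3 CPM in those of set 3. The glucagon receptor gene Gcgr had 5.50 and 2.75 CPM in set 2, and Glp1r and Glp2r stood under 1 CPM in the 4 groups.

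Genes most like Gcg, Pcsk1 and Pcsk2 over cells were found by the mean of the Spearman correlations in the 2 genotypes of set 2, over 9349 genes. Cells of a group share libraries, depth and the Gm12338 split, so these values are descriptions. Gcg was closest to Map3k15 (0.32 in Ngn3KO and 0.48 in Neurod1OE), Irx1, Spink4, Irx2 and Peg10. Pcsk2 was closest to Iapp (0.47 and 0.56), Gnas, the zinc transporter gene Slc30a8, Sez6l2 and Aplp1. Pcsk1 was closest to Tmed10 (0.38 and 0.34), Erp29, Scg3, Pdia6 and Hsp90b1, some of which encode chaperones of the endoplasmic reticulum.

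Among themselves the genes were loosely tied in set 2. Gcg and Pcsk2 had Spearman correlations of 0.32 in Ngn3KO and 0.29 in Neurod1OE cells, and Gcg and Pcsk1 -0.27 and -0.30. The Gcg and Pcsk1 value was negative in both Gm12338 subsets of both genotypes, between -0.37 and -0.26, and was -0.15 and -0.16 in cells with at least 10000 CPM of Gcg. Pcsk2 and Pcsk1 had values near 0 (-0.03 and -0.02). Pcsk2 and its chaperone gene Scg5 had 0.25 and 0.30. Neurod1OE cells of set 3 were a mix of hormone-high cells, Cpa1-high cells and 41 cells under 1000 CPM of Cpa1 and of each hormone. Over these Neurod1OE cells of set 3, Pcsk2 had 0.74 with Scg5, 0.80 with Pcsk1n and 0.79 with Cpe. Pcsk2 had 0.08 with Pcsk1, and Gcg with Pcsk1 was near 0 (-0.08).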

How the data were processed

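Each matrix holds whole-number read counts per gene, without normalization, as the authors deposited them. The submitters' processing notes list Trimmomatic 0.39, HISAT2 2.1.0, mm10 and featureCounts 2.0.0. The annotation, the strand setting and whether molecule barcodes were used are not given in the sources used here. No cell was left out and no doublet caller was run, since wells held 1 sorted cell.

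Counts were summed per genotype and set and scaled to CPM by totals without spike-ins. Log2 ratios were taken after adding 1 CPM, with 2-fold as the limit. Exon lengths and positions came from GENCODE vM21 (GRCm38), promoters from RefSeq. Cells were thinned to 165298 reads, the 10th percentile of totals, which left out 31 Ngn3KO and 2 Neurod1OE cells of set 2 and 3 Ngn3KO and 9 Neurod1OE cells of set 3. Sex was called at 10 CPM of Xist or of the Y-linked genes, and cells with both or neither were uncalled. Exact Poisson and Clopper-Pearson intervals (95%) are for counting error.

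Named list genes were the 6 with the highest sum in any group (4 for receptors), and likeness names the 5 highest means. The 7 genes, lists, Gcg bands and subsets were chosen with earlier results of these data known. The ratio and share functions were tested on simulated data. Python 3.11.15 with numpy 2.4.6, scipy 1.17.1, pandas 2.3.3 and matplotlib 3.10.9 was used. Scaling factors for the alternatives came from edgeR 4.0.16 and DESeq2 1.42.0 under R 4.3.3. Other alternatives covered pseudocounts, filters, length, depth, hormones, sex and Gm12338, and those by Cpa1 in set 3 and within Gcg bands were added after seeing the data.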

Additional observations from a re-analysis of the deposited data

How the results depend on the processing

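The counts of genes past 2-fold (0 of 7 in set 2, 6 of 7 in set 3 and 0 of 7 in Gcg-rich cells of set 2) kept their values under the alternatives that were run, TMM and DESeq2 scaling among them, with 1 exception. In Cpa1-high cells with no hormone at 1000 CPM, 2 of 7 genes of set 3 were past 2-fold. Both, Cpe (log2 1.13) and Pam (2.09), were higher in Ngn3KO, the reverse of their main ratios. Scg5 (0.84) and Pcsk1n (0.015) were no longer lower, but both stood under 10 CPM in either genotype, below the filter. The cause was not tested. Over the other settings the log2 ratio of Pcsk1 in set 3 lay between -0.23 and 0.63, so its sign was not settled, and that of Pcsk1n in set 2 between -0.72 and -0.01.

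The share of cells with more Pcsk1 than Pcsk2 moved by more than its counting interval in 8 cases. In Ngn3KO cells of set 2 it was 0% in thinned cells, in Gm12338-negative cells and at 10000 CPM of Gcg or more, against 0.976%. In Neurod1OE cells of set 2 it was 0% at 10000 CPM of Gcg or more, against 3.42%. In Ngn3KO cells of set 3 it was 0% at that limit, where 1 cell was left, against 94.7%. In Neurod1OE cells of set 3 it was 0% at that limit, 18.3% with 100 reads of the pair required and 18.2% in thinned cells, against 30.3%; the last settings leave out cells with few reads of the pair. The cause of the other changes was not tested. Without the filter on low values, 4.40% in place of 2.53% of genes in set 2 and 29.5% in place of 37.8% in set 3 were past 2-fold. Replicates could not be left out, since each genotype was 1 sample per set. No paired analysis was possible because the numbers in the titles count cells and no test was made.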

Other observations

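In set 3, 41 Neurod1OE cells had under 1000 CPM of Cpa1 and of each hormone (Gcg, the insulin genes together, Sst, Ppy and Ghrl). Several of the processing genes were present in them. Their sums were 94.4 CPM of Gcg, 468 CPM of Pcsk2, 184.8 CPM of Scg5, 124.8 CPM of Pcsk1, 634 CPM of Pcsk1n, 883 CPM of Cpe and 869 CPM of Pam. The medians were lower, at 14.1 CPM of Pcsk2 and 41.5 CPM of Pcsk1, so that a few cells held most reads of Pcsk2. Of the 27 evaluable cells, 13 had more Pcsk1 than Pcsk2 (48.1%, 28.7 to 68.1). The 5 cells with Ppy alone had 866 CPM of Pcsk2, 196.6 CPM of Pcsk1 and 4776 CPM of Cpe, and 1 of them had more Pcsk1 than Pcsk2.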
